A study of Mus musculus with 8 samples.

Results

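The genes described here encode the enzymes that carry glucose carbon through glycolysis, the tricarboxylic acid (TCA) cycle and the reactions that refill it (anaplerosis), with the neighbouring gluconeogenic, regulatory and shuttle enzymes. They were chosen by symbol from a list of 58 genes, and all 58 were among the 32531 gene symbols of the count table. Of these, 57 had 10 or more counts in 4 or more libraries and were tested among 15082 genes. Pck1 was the member below that minimum. The list was by gene name, with no threshold on a measured value, although earlier results of these data were known when it was drawn up.

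RNA had been sequenced from pancreatic islets of 4 control and 4 β-tetO-NICD samples, 1 library each. Controls carried RIP-Cre and Rosa26-rtTA without the tetO_NICD transgene, and β-tetO-NICD mice carried all 3. Mice of both groups were on a mixed background of C57BL/6J, 129X1/SvJ and BALB/c and had Dox in their drinking water for 8 weeks; the labels give no age. RIP-Cre, an insulin promoter transgene, switches on rtTA in β cells, and rtTA with Dox induces NICD, the intracellular and active part of the Notch1 receptor. The libraries came from whole islets, which also hold α, δ and other cells, and in such bulk RNA fewer cells of a type and less RNA per cell cannot be told apart. The methods name islets of 4 controls and 4 β-tetO-NICD as the source, the same number as the libraries, and the p values measure the spread between these samples.

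In β cells glucose metabolism is the sensor for insulin release. Glucose is phosphorylated, passes through glycolysis to pyruvate, and pyruvate enters mitochondria, where pyruvate dehydrogenase feeds acetyl groups into the TCA cycle and pyruvate carboxylase supplies oxaloacetate. β cells are known for high carboxylase activity, for shuttles that move cytosolic reducing power into mitochondria, and for low lactate dehydrogenase. Several steps are served by more than 1 gene, and the isoforms differ in tissue and in regulation.

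Libraries held between 21701223 and 26413146 counts. Notch1, whose intracellular part the transgene encodes, had 1051 to 1562 counts in controls and 11388 to 36628 in β-tetO-NICD libraries, which matched the labels. The tissue label was met by the insulin genes Ins1 and Ins2, which took 14.95% to 17.3% of the counts in controls and 6.16% to 13.9% in β-tetO-NICD libraries. Libraries fell on different sides in 2 further measures. Controls 1, 2 and 4 and β-tetO-NICD library 1 had higher counts for long transcripts (Spearman's rho of a library's deviation with transcript length 0.42 to 0.50), and control 3 and β-tetO-NICD libraries 2, 4 and 5 had lower counts for them (rho −0.52 to −0.17). Eif2s3y, a Y-linked gene, had 1300 to 1527 counts in 3 libraries, controls 2 and 4 and β-tetO-NICD library 5, while the other 5 had no more than 1 count each, although the methods describe the use of male mice for gene expression. Results that rest on these libraries are given below with and without them.

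Few of these genes passed the test between the groups. Of the 57 tested, 5 had an adjusted p under 0.05 by edgeR (quasi-likelihood test, Benjamini-Hochberg over all 15082 genes), or 8.77% against 6.76% of all genes tested, so the share lay near the background. Fbp2 (log2 fold change 2.24), Aldoc (0.97) and Fh1 (0.85) were higher in β-tetO-NICD islets, 3 of 57 where 4.19% of all genes were called higher. Pfkfb2 (−1.19) and Pcx (−0.85) were lower, 2 of 57 where 2.57% of all genes were called lower. At an unadjusted p under 0.05 there were 14 members, 24.6% against 31.6% of all genes. The median log2 fold change was 0.04 over the members and 0.00 over all genes, and the median size without sign was 0.21 against 0.38. Estimates within 0.2 of 0 on the log2 scale were found for 27 members (47.4%) and for 28.4% of all genes. The level is given throughout as CPM (counts scaled to the normalised library size), and values of single libraries stand in the order of controls 1 to 4 and then β-tetO-NICD libraries 1, 2, 4 and 5. Together the 58 genes took 4829 to 5276 CPM in controls against 4298 to 5453 CPM with NICD.

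**Figure D1:**
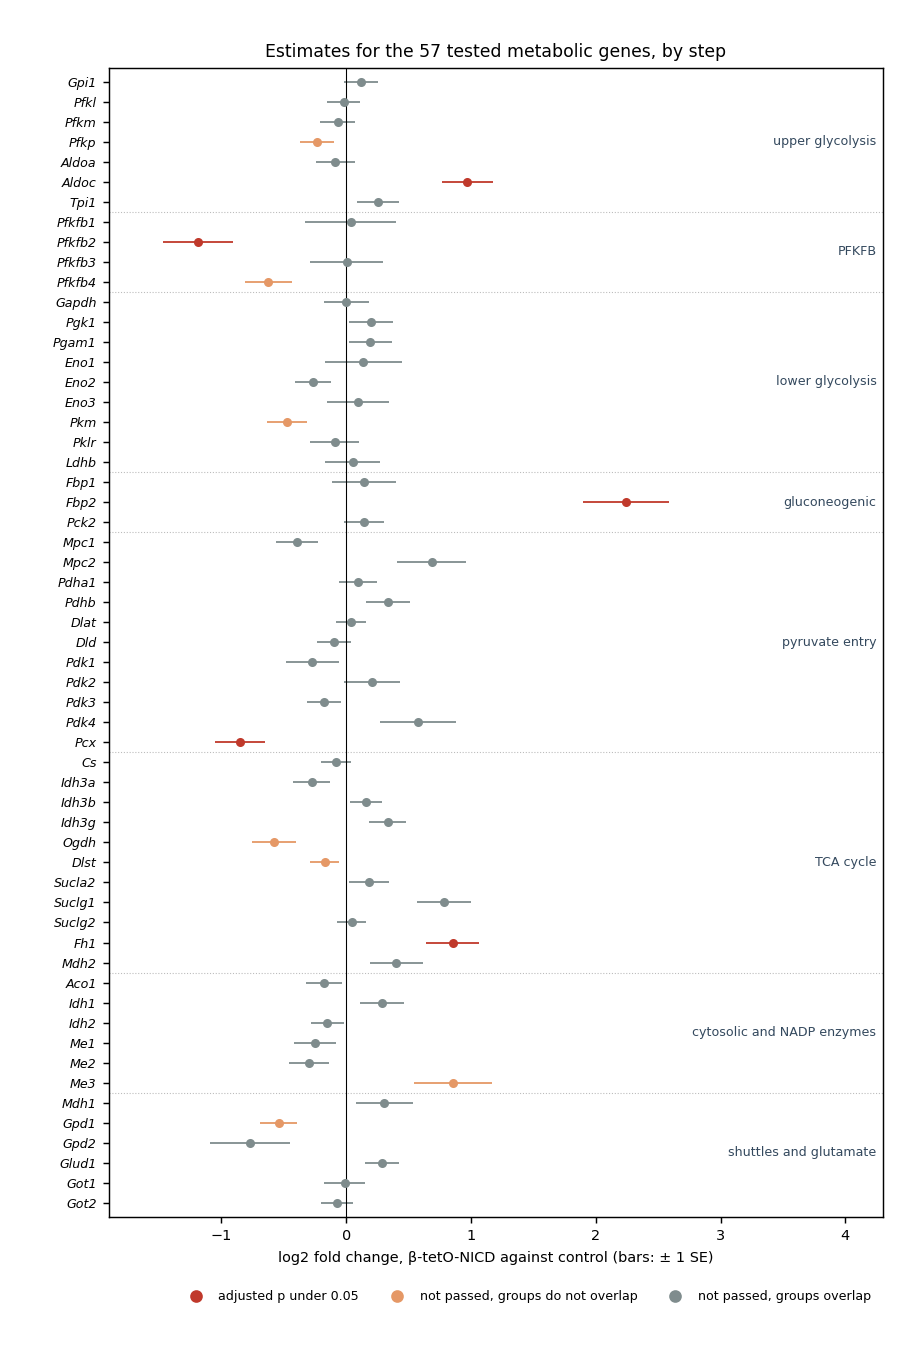
Log2 fold change of β-tetO-NICD islets against controls (x axis) with its standard error (bars) for the 57 tested genes, grouped by metabolic step from glycolysis at the top to the shuttles at the bottom. The 5 genes with an adjusted p under 0.05 (red) are spread over 5 steps, from −1.19 for Pfkfb2 to 2.24 for Fbp2, and 27 estimates lie within 0.2 of 0.

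In 10 of the 57 genes the groups did not overlap in CPM, 17.5% against 16.1% of all genes tested. Of the called genes, Fbp2, Aldoc and Pcx were among them, with Me3 above the controls and Pfkp, Pfkfb4, Pkm, Ogdh, Dlst and Gpd1 below them in every library. The direction of the non-overlapping genes was higher in 3 and lower in 7, where 8.22% and 7.92% of all genes did not overlap in those directions.

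The promoters of the 5 called genes are shown because NICD acts on transcription through the DNA-binding protein RBPJ, and because E-boxes and hypoxia elements are known control elements of glycolytic genes. Each sequence is the 250 bases before an annotated transcription start, from RefSeq (GRCm38.p6), written 5′ to 3′ in the direction of transcription. Pfkfb2, Aldoc and Pcx have further annotated starts, whose sequences are not shown. Capitals mark the RBPJ core TGGGAA, which reads TTCCCA when it lies on the opposite strand, the E-box with the letters CACGTG, and the core of the hypoxia element with the letters ACGTG, which is contained in the E-box and reads CACGT when it lies on the opposite strand.
Pfkfb2 (chr1:130715822-130716071, minus strand): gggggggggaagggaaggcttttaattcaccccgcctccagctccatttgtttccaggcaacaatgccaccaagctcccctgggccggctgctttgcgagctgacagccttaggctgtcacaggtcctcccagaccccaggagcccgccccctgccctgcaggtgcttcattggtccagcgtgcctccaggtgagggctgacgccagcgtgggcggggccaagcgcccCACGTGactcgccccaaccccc
Aldoc (chr11:78322823-78323072, plus strand): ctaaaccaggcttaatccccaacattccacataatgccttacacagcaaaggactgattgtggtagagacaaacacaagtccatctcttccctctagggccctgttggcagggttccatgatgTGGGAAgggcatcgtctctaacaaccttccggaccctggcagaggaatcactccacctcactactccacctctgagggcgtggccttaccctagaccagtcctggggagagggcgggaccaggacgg
Fbp2 (chr13:62858401-62858650, minus strand): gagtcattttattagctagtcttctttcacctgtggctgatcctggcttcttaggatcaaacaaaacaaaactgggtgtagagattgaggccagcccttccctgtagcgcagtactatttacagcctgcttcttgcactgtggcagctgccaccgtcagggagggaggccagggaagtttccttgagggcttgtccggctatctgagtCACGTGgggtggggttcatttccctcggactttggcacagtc
Pcx (chr19:4510222-4510471, plus strand): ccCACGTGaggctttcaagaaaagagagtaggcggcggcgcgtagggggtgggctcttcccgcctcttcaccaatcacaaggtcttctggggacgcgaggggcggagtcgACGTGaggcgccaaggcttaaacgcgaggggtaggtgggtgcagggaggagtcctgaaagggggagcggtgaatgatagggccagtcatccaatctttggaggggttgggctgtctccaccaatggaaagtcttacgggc
Fh1 (chr1:175625636-175625885, minus strand): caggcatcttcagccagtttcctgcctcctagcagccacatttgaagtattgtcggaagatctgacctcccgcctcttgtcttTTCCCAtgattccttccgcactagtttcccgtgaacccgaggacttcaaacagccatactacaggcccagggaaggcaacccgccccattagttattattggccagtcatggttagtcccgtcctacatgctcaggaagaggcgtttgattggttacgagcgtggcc

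Counted from the start, the E-box began at position −22 in Pfkfb2, −42 in Fbp2 and −248 in Pcx. The RBPJ core began at position −127 in Aldoc and −167 in Fh1. In promoters not shown, the RBPJ core began at −7 in Pfkfb2 and at −17 and 18 in Aldoc. The letters are common, so a match is a description only. Promoters of 300 bases, with 50 bases after the start, were matched for 55 of the 58 members (83 promoters, some genes having several). Of these, 28.9% held TGGGAA on either strand against 25.6% of all 32851 mouse promoters, 10.8% held CACGTG against 7.15%, and 33.7% held ACGTG against 19.6%. Counting every promoter of a gene, TGGGAA was present in Aldoc, Fh1 and Pfkfb2 and CACGTG in Fbp2, Pcx and Pfkfb2.

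In upper glycolysis, 1 of 7 genes was called. Aldoc encodes aldolase C, the isoform of brain, which splits fructose bisphosphate into triose phosphates, and it lies at chr11:78322968-78327781 in GRCm38 (GENCODE M21). Its levels were 14.5, 16.3, 14.5 and 17.4 CPM in the controls against 19.3, 33.1, 32.5 and 37.9 CPM in the β-tetO-NICD islets. Every β-tetO-NICD library was above every control, and library 1 was the lowest of its group and nearest to the controls. The means were 15.7 ± 1.44 CPM in controls against 30.7 ± 7.96 CPM in β-tetO-NICD islets (SD, n = 4), a 1.96-fold difference (log2 fold change 0.97, SE 0.20, adjusted p = 0.024). With 1 library left out at a time, Aldoc passed in 1 of 8 fits, the fit without β-tetO-NICD library 1, and the adjusted p reached 0.0816 while the log2 fold change stayed between 0.86 and 1.14. Over all genes 33.2% were called in that fit and 2.14% to 5.78% with another library left out, against 6.76% with all libraries.

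Aldoa, the major aldolase, did not pass, at 386, 383, 399 and 378 CPM in the controls against 287, 409.6, 373 and 384 CPM in the β-tetO-NICD islets (log2 fold change −0.09, SE 0.16, adjusted p = 0.707). The 3 phosphofructokinases, the rate-setting enzymes of glycolysis, did not pass either. Pfkm, the muscle type and per length of transcript the most abundant of them, measured 69.6, 66.5, 67.1 and 61.1 CPM in the controls against 67.3, 65.3, 69.7 and 49.5 CPM in the β-tetO-NICD islets (log2 fold change −0.07, SE 0.14, adjusted p = 0.751), and the groups overlapped. Pfkp, the platelet type, measured 36.8, 38.7, 36.9 and 48.02 CPM in the controls against 32.4, 32.8, 35.8 and 35.3 CPM in the β-tetO-NICD islets (log2 fold change −0.23, SE 0.13, adjusted p = 0.244). Every β-tetO-NICD library was below every control for Pfkp, but the estimate turned to 0.28 with an offset for transcript length, while with the length side of the library as a covariate it was −0.22. Gpi1, Pfkl and Tpi1 had estimates of 0.12, −0.02 and 0.26, with overlapping groups.

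The PFKFB genes encode bifunctional kinases and phosphatases that set the level of the sugar bisphosphate that activates phosphofructokinase, and 1 of 4 was called. Pfkfb2 (chr1:130689182-130729253) was at 94.5, 94.8, 52.7 and 109 CPM in the controls against 58.7, 29.9, 35.7 and 29.6 CPM in the β-tetO-NICD islets. Control 3 was the lowest control and fell below β-tetO-NICD library 1, the highest of its group, so the groups overlapped at those libraries. The means were 87.8 ± 24.4 CPM in controls against 38.5 ± 13.8 CPM in β-tetO-NICD islets (SD, n = 4), 2.28-fold lower in β-tetO-NICD islets (log2 fold change −1.19, SE 0.28, adjusted p = 0.0368). Pfkfb2 passed in 2 of 8 fits with 1 library left out, those without control 3 and without β-tetO-NICD library 1, and the adjusted p reached 0.124 in the others, with log2 fold changes from −1.46 to −1.07 over the 8 fits. Of the annotated 31-base words of Pfkfb2, 81.1% are found in no other gene, against 99.18% to 100% for the other called genes. Pfkfb4 measured 9.73, 11.3, 9.18 and 11.9 CPM in the controls against 7.75, 6.2, 7.9 and 5.44 CPM in the β-tetO-NICD islets, every β-tetO-NICD library below every control, and did not pass (log2 fold change −0.62, SE 0.19, adjusted p = 0.0704). Pfkfb3 (estimate 0.00) and Pfkfb1 (0.04, at 0.507 to 1.42 CPM) did not pass.

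**Figure D2:**
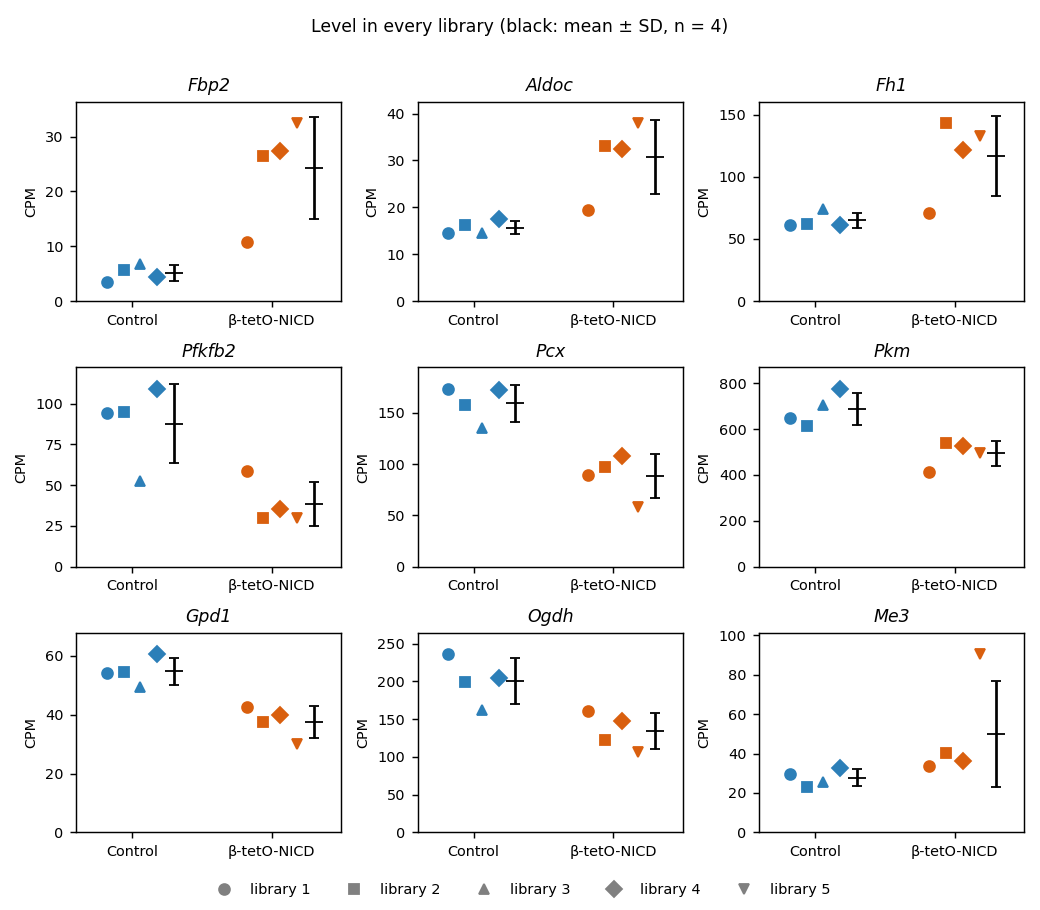
Level (CPM, y axis from 0) in each library of the 5 called genes (Fbp2, Aldoc, Fh1, Pfkfb2 and Pcx) and of 4 further genes whose groups did not overlap (Pkm, Gpd1, Ogdh and Me3), with marker shapes for the library number and the mean ± SD of 4 libraries in black. β-tetO-NICD library 1 (circle) is nearest to the controls for Fbp2, Aldoc, Fh1 and Pfkfb2, and control 3 (triangle) is nearest to the β-tetO-NICD libraries for Fbp2, Fh1, Pfkfb2 and Pcx.

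In lower glycolysis, from triose phosphate to pyruvate and lactate, none of 9 genes passed the edgeR test, with 1 at an unadjusted p under 0.05 (Pkm); limma-voom also passed none and DESeq2 passed Pkm. Pkm, the pyruvate kinase of most tissues, measured 649, 616, 705 and 775 CPM in the controls against 414, 540.1, 525 and 495 CPM in the β-tetO-NICD islets. All 4 β-tetO-NICD libraries were below all controls (log2 fold change −0.48, SE 0.16, adjusted p = 0.0951), a 1.39-fold difference. The adjusted p of Pkm was 0.0173 by DESeq2 and 0.017 with the length offset. Only 65.3% of the annotated 31-base words of Pkm are found in no other gene, so reads may be shared with near-identical copies.

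Gapdh, a common reference gene, measured 354, 363, 401 and 386 CPM in the controls against 302, 462, 427 and 314 CPM in the β-tetO-NICD islets (log2 fold change 0.00, SE 0.18, adjusted p = 0.997), and the β-tetO-NICD libraries ranged on both sides of the controls. Eno1, the most abundant enolase per length, measured 63.6, 82.4, 70.9 and 131 CPM in the controls against 49.5, 119, 118 and 97.5 CPM in the β-tetO-NICD islets (log2 fold change 0.14, SE 0.31, adjusted p = 0.772). Control 4 was the highest and β-tetO-NICD library 1 the lowest of the 8. Eno1 shares sequence with the copy Eno1b, which took 20.2% to 47.2% of their summed counts across libraries, and the sum of both had a log2 fold change of −0.00. Counts of Eno1 alone are therefore uncertain. Pgk1, with 45.3% of its words unique, and Pgam1, with 62.9%, are uncertain for the same reason, as are Ldhb, Mpc1, Got2 and Gapdh, with 67.0% to 71.9%. Estimates of the remaining members were between −0.26 (Eno2, the neuronal enolase) and 0.20 (Pgk1).

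Among the gluconeogenic genes, Fbp2 was called. Fbp2 encodes the muscle type of fructose bisphosphatase, the enzyme that opposes phosphofructokinase, and lies at chr13:62836877-62858422. Its levels were 3.41, 5.74, 6.85 and 4.46 CPM in the controls against 10.8, 26.4, 27.4 and 32.4 CPM in the β-tetO-NICD islets. The lowest β-tetO-NICD library, number 1, was above the highest control, number 3, and the other 3 β-tetO-NICD libraries were close to each other. The means were 5.12 ± 1.5 CPM in controls against 24.3 ± 9.34 CPM in β-tetO-NICD islets (SD, n = 4), a 4.73-fold difference (log2 fold change 2.24, SE 0.35, adjusted p = 0.00572). Fbp2 passed in all 8 fits with 1 library left out, with log2 fold changes from 2.08 to 2.49 and adjusted p from 0.000387 to 0.0263.

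Fbp1, the liver type, is the neighbouring gene (chr13:62864753-62888282) and was the more abundant of the pair, at 51.7, 48.2, 86.9 and 47.8 CPM in the controls against 42.5, 61.6, 85.2 and 68.9 CPM in the β-tetO-NICD islets. Its groups overlapped (log2 fold change 0.14, SE 0.26, adjusted p = 0.724), and its estimate was −0.21 with the length offset and −0.24 with the length side covariate. Pck2, the mitochondrial enzyme that makes phosphoenolpyruvate from oxaloacetate, measured 136, 92.1, 141 and 108 CPM in the controls against 125, 126, 139.8 and 135 CPM in the β-tetO-NICD islets (log2 fold change 0.14, SE 0.16, adjusted p = 0.558). Pck1, its cytosolic counterpart, had 2 to 5 counts in controls and 4 to 8 counts in β-tetO-NICD libraries. Pck1 was thus near the floor of 3 counts, at most 0.151 CPM in a library, which covers counting error only.

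At the entry of pyruvate into mitochondria, 1 of 11 genes was called. Pcx encodes pyruvate carboxylase, the anaplerotic enzyme that turns pyruvate into oxaloacetate, and lies at chr19:4510472-4621752. Its levels were 173, 157, 135 and 172 CPM in the controls against 89.4, 97.4, 108 and 57.9 CPM in the β-tetO-NICD islets. Every β-tetO-NICD library was below every control, with library 5 the lowest and control 3 the lowest control. The means were 159 ± 17.9 CPM in controls against 88.2 ± 21.6 CPM in β-tetO-NICD islets (SD, n = 4), 1.81-fold lower in β-tetO-NICD islets (log2 fold change −0.85, SE 0.20, adjusted p = 0.0357). Pcx passed in 3 of 8 fits with 1 library left out, those without control 3, without β-tetO-NICD library 1 and without β-tetO-NICD library 5, and the adjusted p reached 0.106, with log2 fold changes from −0.96 to −0.69 over the 8 fits. With the replicate number as a block, it was 0.0546, and 4 members passed where 6.43% of all genes were called (3.7% higher and 2.73% lower).

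The subunits of pyruvate dehydrogenase, the alternative fate of pyruvate, did not pass. Estimates were 0.09 for Pdha1, 0.34 for Pdhb, 0.04 for Dlat and −0.10 for Dld. Pdk4, in mean level per length the most abundant of the 4 kinases that switch pyruvate dehydrogenase off, measured 50.8, 50.6, 89.9 and 41.6 CPM in the controls against 134, 74.9, 57.04 and 81.1 CPM in the β-tetO-NICD islets (log2 fold change 0.57, SE 0.30, adjusted p = 0.214). β-tetO-NICD library 1 was the highest of the 8, and control 3 was above 3 of the β-tetO-NICD libraries. The estimates of Pdk1, Pdk2 and Pdk3 were −0.27, 0.21 and −0.18. The subunits of the mitochondrial pyruvate carrier had estimates of opposite sign that did not pass, Mpc1 at −0.39 (adjusted p = 0.146) and Mpc2 at 0.68 (adjusted p = 0.132).

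In the TCA cycle, 1 of 11 genes was called. Fh1 encodes fumarate hydratase, which converts fumarate to malate (chr1:175600374-175625635). Its levels were 61.5, 62.2, 74.5 and 61.2 CPM in the controls against 70.8, 143, 121 and 133 CPM in the β-tetO-NICD islets. β-tetO-NICD libraries 2, 4 and 5 were well above the controls, while library 1 was below control 3, so the groups overlapped. The means were 64.8 ± 6.43 CPM in controls against 117 ± 32.1 CPM in β-tetO-NICD islets (SD, n = 4), a 1.81-fold difference (log2 fold change 0.85, SE 0.21, adjusted p = 0.0447). Fh1 passed in 1 of 8 fits with 1 library left out, the fit without β-tetO-NICD library 1, and the adjusted p reached 0.136 in the others, with log2 fold changes from 0.75 to 1.03 over the 8 fits. It was 0.0534 by limma-voom.

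Ogdh and Dlst encode subunits of the oxoglutarate dehydrogenase complex, which forms succinyl-CoA, and for both every β-tetO-NICD library was below every control. Ogdh measured 236, 199, 162 and 205 CPM in the controls against 160.3, 122, 148 and 107 CPM in the β-tetO-NICD islets (log2 fold change −0.58, SE 0.18, adjusted p = 0.0756). The gap between the groups of Ogdh was narrow, since control 3 and β-tetO-NICD library 1 nearly met. Dlst measured 74.99, 73.3, 70.6 and 75.98 CPM in the controls against 67.4, 64.9, 69.1 and 60.1 CPM in the β-tetO-NICD islets (log2 fold change −0.17, SE 0.12, adjusted p = 0.313). Neither passed the edgeR test; Ogdh passed by DESeq2 (adjusted p = 0.0193) and with the length offset (adjusted p = 0.0469).

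Suclg1, a subunit of succinyl-CoA ligase at the following step, had a positive estimate that did not pass (log2 fold change 0.78, SE 0.22, adjusted p = 0.0601). It measured 67.4, 72.9, 85.8 and 71.8 CPM in the controls against 82.02, 147, 113 and 169.9 CPM in the β-tetO-NICD islets, with β-tetO-NICD library 1 below control 3, as for Fh1. Its partner subunits Suclg2 (0.04) and Sucla2 (0.18) did not pass. Citrate synthase (Cs, −0.08), the subunits of the NAD-dependent isocitrate dehydrogenase (Idh3a −0.28, Idh3b 0.16 and Idh3g 0.33) and mitochondrial malate dehydrogenase (Mdh2, 0.40) did not pass.

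Among the cytosolic and NADP-linked enzymes, none of 6 passed the edgeR test, with 1 (Me3) at an unadjusted p under 0.05, and DESeq2 and limma-voom also passed none. Malic enzymes turn malate back to pyruvate. Me1, the cytosolic form and in every control the most abundant per length, measured 47.5, 56.2, 45.3 and 54.5 CPM in the controls against 35.4, 52.3, 34.96 and 48.4 CPM in the β-tetO-NICD islets (log2 fold change −0.25, SE 0.17, adjusted p = 0.316), with overlapping groups. Me3, a mitochondrial form, measured 29.5, 22.9, 25.5 and 32.8 CPM in the controls against 33.8, 40.04, 36.2 and 90.3 CPM in the β-tetO-NICD islets (log2 fold change 0.86, SE 0.31, adjusted p = 0.108). Every β-tetO-NICD library was above every control for Me3, but library 5 stood far above the rest, and without it the estimate was 0.41. Me2, the other mitochondrial form, had an estimate of −0.30. Idh2, the mitochondrial NADP-dependent isocitrate dehydrogenase, measured 128, 116, 132 and 114 CPM in the controls against 107, 95.98, 122 and 118 CPM in the β-tetO-NICD islets (log2 fold change −0.15, SE 0.14, adjusted p = 0.449). Idh1, its cytosolic counterpart, had an estimate of 0.29, and the cytosolic aconitase Aco1 one of −0.18.

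Among the shuttle and glutamate enzymes, none of 6 passed the edgeR test, with 2 (Gpd1 and Gpd2) at an unadjusted p under 0.05; limma-voom passed none and DESeq2 passed Gpd1 (adjusted p = 0.00673). Gpd1 is the cytosolic enzyme of the glycerol phosphate shuttle. It measured 54.3, 54.6, 49.4 and 60.5 CPM in the controls against 42.8, 37.6, 39.7 and 30.1 CPM in the β-tetO-NICD islets, every β-tetO-NICD library below every control (log2 fold change −0.54, SE 0.15, adjusted p = 0.054). Gpd2, the mitochondrial partner, measured 58.3, 57.9, 42.1 and 85.2 CPM in the controls against 57.97, 19.7, 28.7 and 36.4 CPM in the β-tetO-NICD islets (log2 fold change −0.77, SE 0.32, adjusted p = 0.141). Control 4 was the highest, and β-tetO-NICD library 1 was close to controls 1 and 2. The malate-aspartate shuttle genes Mdh1 (0.30), Got1 (−0.01) and Got2 (−0.07) and glutamate dehydrogenase (Glud1, 0.29) did not pass.

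**Figure D3:**
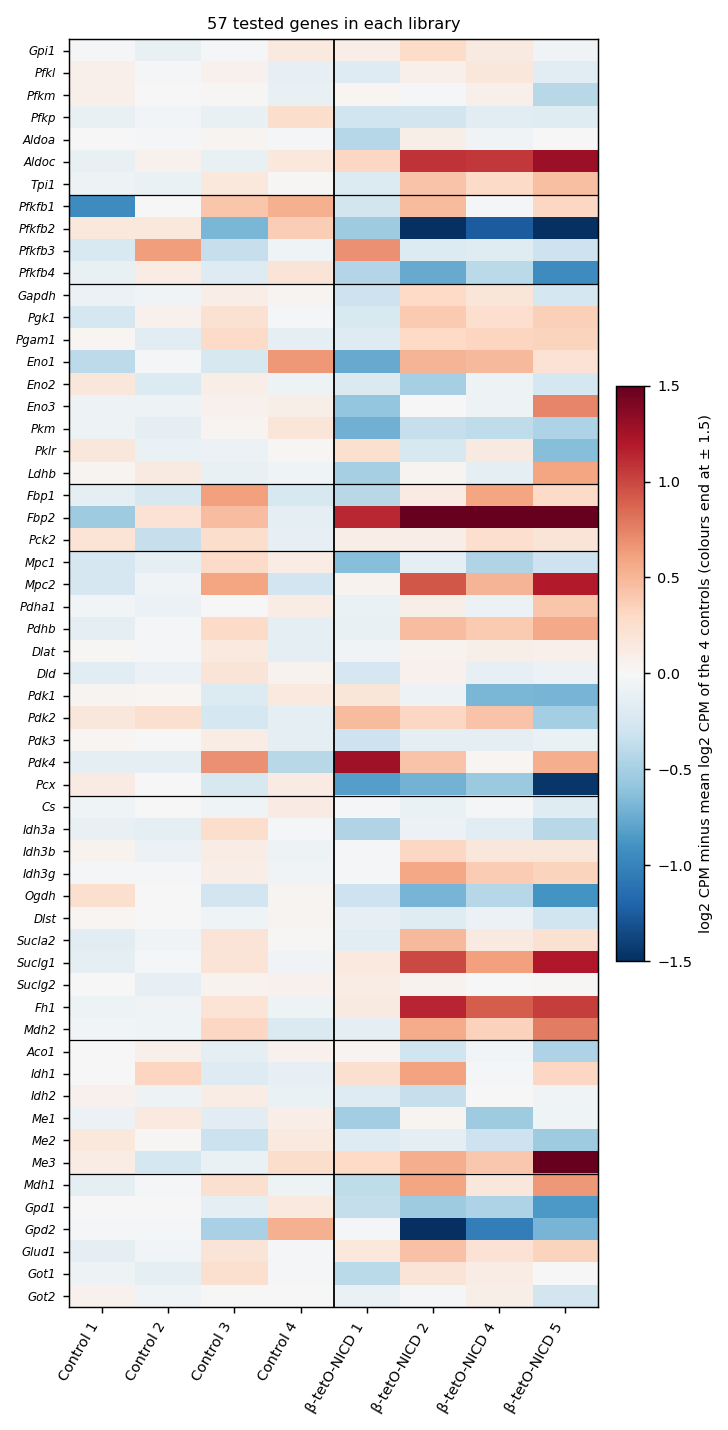
Log2 CPM of each of the 57 tested genes in each of the 8 libraries, relative to the mean of the 4 controls (red above, blue below; the colours end at ± 1.5), with black lines between steps. The 3 β-tetO-NICD libraries 2, 4 and 5 resemble each other in Fbp2, Aldoc, Fh1, Suclg1 and Pfkfb2, and β-tetO-NICD library 1 is paler in these genes.

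Where an enzyme is encoded by several genes, the share of its counts taken by each gene does not depend on library scaling. Fbp2 took 6.20% to 10.6% of the fructose bisphosphatase counts in controls and 20.3% to 32.01% in β-tetO-NICD libraries. The share of Aldoc among aldolase counts was 3.51% to 4.40% in controls and 6.32% to 8.996% in β-tetO-NICD libraries, and Aldoa held 91.0% to 93.7% of them in β-tetO-NICD libraries. Pfkfb2 held 74.8% to 83.9% of the PFKFB counts in controls and 65.8% to 71.6% in β-tetO-NICD libraries, and Pfkfb3 held 6.71% to 11.7% and 15.4% to 17.96%. The mean level of Pfkfb3 itself was 9.52 CPM in controls against 9.56 CPM in β-tetO-NICD islets, so its larger share was no higher level. Among the malic enzymes, Me3 held 23.2% to 30.2% in controls and 36.6% to 59.5% in β-tetO-NICD libraries, and Me1 held 48.4% to 57.1% and 31.9% to 47.7%. For the genes named in these families the ranges of the groups did not meet, except that those of Me1 met when counts were divided by transcript length. The shares of their relatives overlapped, at 8.65% to 13.04% in controls against 9.44% to 15.01% in β-tetO-NICD libraries for Pfkfb4, 0.451% to 1.85% against 0.985% to 2.98% for Pfkfb1 and 17.7% to 21.6% against 8.66% to 19.5% for Me2. Only 63.1% of the 31-base words of Me1 are unique to it, so counts of Me1 and the malic enzyme shares are uncertain. No test was run on the shares.

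In the remaining enzymes the shares given here overlapped between the groups. Pfkp took 21.4% to 28.9% of the phosphofructokinase counts in controls and 20.04% to 25.1% in β-tetO-NICD libraries. Eno2 took 26.3% to 44.7% and 22.6% to 44.7% of the enolase counts, and Pklr, the liver pyruvate kinase, took 2.23% to 2.93% and 2.22% to 4.74%. The enolase counts leave out Eno1b, the copy that shares sequence with Eno1, so the share of Eno2 is uncertain. Pdk4 took 34.0% to 55.4% and 43.0% to 58.6% of the kinase counts, and Idh1 took 19.7% to 28.6% and 23.2% to 37.0% of the NADP-dependent isocitrate dehydrogenase counts. Pck2 held at least 99.8% of the counts of its pair in every library.

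**Figure D4:**
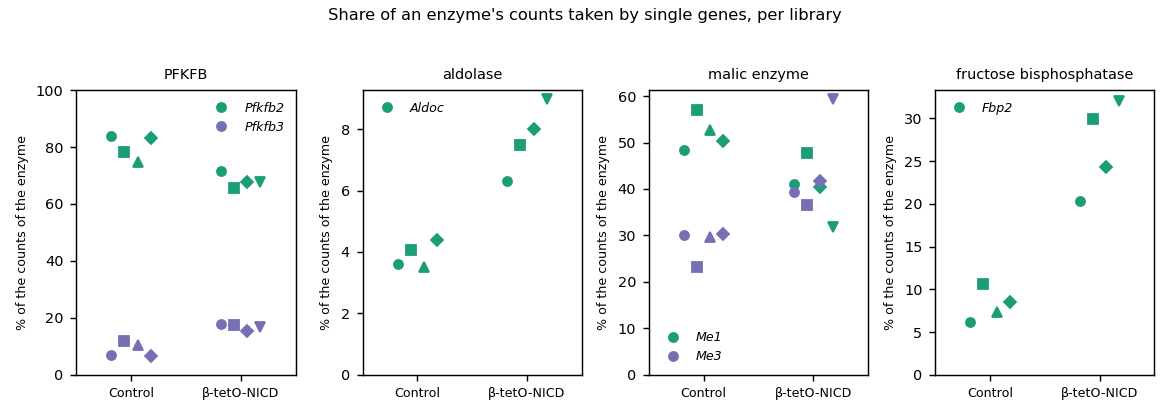
Share (percent, y axis) of an enzyme's counts taken by single genes in each library, with controls on the left and β-tetO-NICD libraries on the right of each panel and marker shapes for the library number (circle 1, square 2, triangle 3, diamond 4, inverted triangle 5). Fbp2, Aldoc, Pfkfb3 and Me3 hold larger shares and Pfkfb2 and Me1 smaller shares in every β-tetO-NICD library than in any control.

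Other genes of the same pathways were read from 6 lists of 50 genes, of which 47 were tested. In edgeR's test 0 were called higher and 5 lower, where 4.19% and 2.57% of all genes tested were called in those directions. An unadjusted p under 0.05 was found for 14 (29.8% against 31.6% of all genes), and DESeq2 called 8 (17.0% against 18.2%), shares near the background. The lists of mitochondrial carriers, the pentose phosphate pathway and glutamine metabolism had no called gene among 7, 7 and 5, with 2, 2 and 1 at an unadjusted p under 0.05. At the entry of glucose, Slc2a2 encodes the β cell glucose transporter and measured 572, 518, 328 and 584 CPM in the controls against 284, 87.1, 131 and 73.96 CPM in the β-tetO-NICD islets (log2 fold change −1.80, SE 0.41, adjusted p = 0.0331). It passed in 2 of 8 fits with 1 library left out, those without control 3 and without β-tetO-NICD library 1. Slc2a1, a further glucose transporter, measured 15.6, 18.6, 16.3 and 27.2 CPM in the controls against 8.17, 8.34, 11.6 and 9.07 CPM in the β-tetO-NICD islets (log2 fold change −1.06, SE 0.22, adjusted p = 0.0202). It passed in 5 of those 8 fits and not without control 2, control 4 or β-tetO-NICD library 2. G6pc2, which encodes the islet glucose phosphatase, measured 1577, 1919, 1600.4 and 1917 CPM in the controls against 398, 296, 302 and 321 CPM in the β-tetO-NICD islets (log2 fold change −2.41, SE 0.19, adjusted p = 0.000138) and passed in all 8.

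Tigar, a phosphatase that acts on the activator of phosphofructokinase, measured 27.1, 22.2, 18.7 and 23.7 CPM in the controls against 15.1, 14.2, 16.4 and 13.7 CPM in the β-tetO-NICD islets (log2 fold change −0.63, SE 0.15, adjusted p = 0.0411). Mlxipl, which encodes the carbohydrate response element binding protein, a glucose-responsive transcription factor, measured 178, 147, 94.01 and 133 CPM in the controls against 93.7, 39.1, 58.4 and 65.04 CPM in the β-tetO-NICD islets (log2 fold change −1.11, SE 0.28, adjusted p = 0.0445). For all 5 called genes of the lists every β-tetO-NICD library was below every control, with the narrowest gap for Mlxipl. Tigar and Mlxipl each passed in 2 of the 8 fits, those without control 3 and without β-tetO-NICD library 1.

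Some markers of other islet cells, 2 of the α and 1 of the δ list, were called higher in β-tetO-NICD islets. The summed level of 3 α cell markers (Gcg, Irx1 and Irx2) was 11335 to 41163 CPM in controls against 53439 to 67108 CPM in β-tetO-NICD libraries, and 2 of the 3, Irx1 and Irx2, were called higher. Gcg, the glucagon gene, made up nearly all of that sum, at 11317 to 41122 CPM in controls against 53398 to 67055 CPM with NICD, and itself missed the threshold (log2 fold change 1.44, SE 0.41, adjusted p = 0.0622). Control 3 had the highest sums of α cell and of β cell markers among the controls and was the only control with lower counts for long transcripts. It was also the control nearest to the β-tetO-NICD libraries for Fbp2, Fh1, Pfkfb2 and Pcx. Of 3 δ cell markers 1 was called higher (2436 to 6583 CPM in controls against 5079 to 14142 CPM in β-tetO-NICD libraries). Of 8 β cell markers 1 was called lower, and their sum was 154674 to 195840 CPM in controls against 71721 to 171768 CPM in β-tetO-NICD libraries. β-tetO-NICD library 5 had the highest Fbp2 and Aldoc and the lowest Pcx. Its β cell sum lay within the range of the controls, and Ins1 and Ins2 made up most of it (39085 and 117321 of 171768 CPM). As a share of all counts, however, Ins1 and Ins2 took 13.9% in library 5, below the 14.95% to 17.3% of the controls. The acinar sum was 36482 to 73288 CPM in controls against 30592 to 111696 CPM in β-tetO-NICD libraries, and with the acinar score as a covariate the 5 genes passed, together with Suclg1 (6 of 57, 10.5% where 9.3% of all genes were called, 4.85% higher and 4.45% lower). The duct, macrophage, endothelial, stromal and glial lists overlapped between the groups with no called gene, and no defining marker of any list was at 0 in every library. The part of the α, β and δ cell shifts in the differences above was not tested.

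The 2 measures that split the libraries were set beside the 5 called genes. Among libraries with a positive length correlation, 3 controls and β-tetO-NICD library 1, the called genes were at 3.41 to 5.74 against 10.8 CPM for Fbp2, 14.5 to 17.4 against 19.3 for Aldoc, 61.2 to 62.2 against 70.8 for Fh1, 94.5 to 109 against 58.7 for Pfkfb2 and 157 to 173 against 89.4 for Pcx. Among those with a negative one, control 3 and 3 β-tetO-NICD libraries, they were at 6.85 against 26.4 to 32.4 CPM, 14.5 against 32.5 to 37.9, 74.5 against 121 to 143, 52.7 against 29.6 to 35.7 and 135 against 57.9 to 108. All 5 kept their direction without overlap on each side, but this was fixed by the levels over all libraries and is no check. Fbp2, Aldoc and Pcx did not overlap over all libraries, so no split could make them overlap. Fh1 and Pfkfb2 overlapped only at control 3 and β-tetO-NICD library 1, which lie on different sides. Each side also had 1 group of a single library. With the side as a covariate, an alternative chosen after seeing the data, 2 genes passed, Fbp2 (log2 fold change 1.66, adjusted p = 0.00908) and Pfkfb2 (−0.75, adjusted p = 0.0142), 2 of 57 where 4.03% of all genes were called (2.4% higher and 1.63% lower). The estimates of the genes that did not pass were 0.76 for Aldoc (adjusted p = 0.103), −0.76 for Pcx (adjusted p = 0.0961) and 0.52 for Fh1 (adjusted p = 0.125).

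With an offset per library fitted to transcript length, 12 members passed, 21.1% where 10.5% of all genes were called (5.36% higher and 5.18% lower). The 5 genes were among them, and the further 7, Aldoa, Pfkfb4, Pkm, Mpc1, Pdk3, Ogdh and Gpd1, were lower in β-tetO-NICD islets. Across the 57 genes Spearman's rho of the log2 fold change with transcript length was −0.33 without the offset and 0.16 with it, and across 14659 tested genes with a length it was −0.49 and −0.04. These are correlations across genes of the same libraries, carry no p value, and share the base of the offset.

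**Figure D5:**
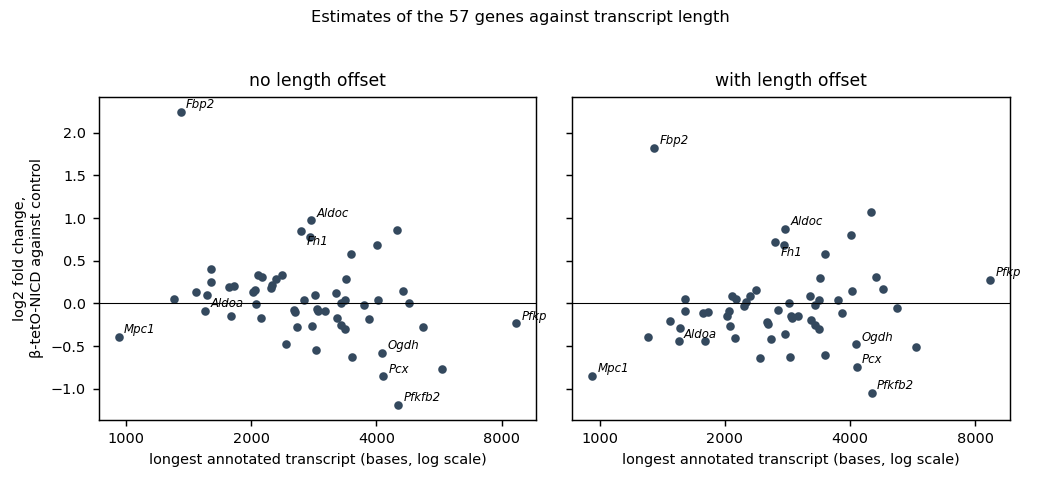
Log2 fold change of the 57 tested genes (y axis) against the length of the longest annotated transcript (x axis, bases, log scale), without (left) and with (right) an offset for transcript length in each library. Short genes such as Aldoa and Mpc1 move down with the offset and the long Pfkp moves from −0.23 to 0.28, while Fbp2, Aldoc and Fh1 stay above 0 and Pfkfb2 and Pcx below it.

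By presence of Eif2s3y counts, the groups of Fbp2, Aldoc and Pcx did not overlap on either side. This was fixed, since they did not overlap over all libraries, and the side with such counts held 1 β-tetO-NICD library. Among the 5 libraries without such counts, 2 controls and 3 β-tetO-NICD, Fh1 overlapped at 61.5 to 74.5 against 70.8 to 143 CPM and Pfkfb2 at 52.7 to 94.5 against 29.9 to 58.7 CPM. With these counts as a covariate in edgeR's test, Aldoc, Fbp2 and Pcx passed, where 4.91% of all genes were called (3.21% higher and 1.7% lower). Fh1 and Pfkfb2 did not pass (adjusted p = 0.0693 and 0.0749), with log2 fold changes of 0.86 and −1.16, close to those without the covariate. In edgeR's test on the 5 libraries alone none of the 57 genes passed, with 3 at an unadjusted p under 0.05 (Fbp2, Aldoc and Pcx, 5.26% against 12.7% of all genes), where 0.809% of all genes were called (0.597% higher and 0.212% lower). The log2 fold changes in these libraries were 2.07 for Fbp2, 0.97 for Aldoc, 0.72 for Fh1, −0.83 for Pfkfb2 and −0.65 for Pcx.

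β-tetO-NICD library 1 had the largest influence of any library. Without it 15 members passed in edgeR's test, 26.3% where 33.2% of all genes were called (16.3% higher and 17.0% lower). They were the 5 genes together with Idh3g, Mdh2, Me3, Mpc2, Pdhb and Suclg1, higher, and Gpd1, Gpd2, Ogdh and Pfkfb4, lower. Leaving out any other library left 1 to 3 members (1.75% to 5.26%), where 2.14% to 5.78% of all genes were called.

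DESeq2 passed 10 members, 17.5% where it called 18.2% of all genes. They were 4 higher, the 3 genes named above and Suclg1, where 9.91% of all genes were called higher, and 6 lower, Pfkfb2, Pcx, Gpd1, Ogdh, Pfkfb4 and Pkm, where 8.25% were called lower. Limma-voom passed 4, the 5 genes without Fh1, where it called 7.18% of all genes (4.12% higher and 3.06% lower).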

How the data were processed

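Per the labels, islet RNA was made into libraries with a stranded mRNA kit by a sequencing provider. The authors used Kallisto to pseudoalign reads to GRCm38 transcripts and deposited whole-number counts per gene symbol, not normalized. The Kallisto version and annotation release are not given in the sources used here. Columns of the authors' own limma comparison (fold changes, p values and related statistics) were not used. β-tetO-NICD columns 4 and 5 were assigned by name to the group and to no single labelled mouse. Totals of 21701223 to 26413146 counts leave counting error small beside the spread between libraries, except near the floor of 3 counts.

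The analysis used edgeR 4.0.16 in R 4.3.3 (TMM, glmQLFit and glmQLFTest, no covariate, a minimum of 10 counts in 4 or more libraries, Benjamini-Hochberg adjustment over 15082 genes, threshold 0.05), and adjusted p values without a named tool are from it. CPM use TMM library sizes. Lengths (longest transcript) and coordinates are from GENCODE M21. The test was tested on simulated data with 200 changed genes among 14905, where it recovered 31% of log2 changes of 1 and 89% of log2 changes of 2.

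Members and lists were chosen with earlier results of these data known. Described in full were members that passed, members whose groups did not overlap, and the most abundant isoform per length of each enzyme. Gapdh, Suclg1 and Gpd2 were added after their values were seen. Alternatives were DESeq2 1.42.0, limma-voom (limma 3.58.1), other normalizations and count minimums, covariates for acinar score and Eif2s3y, a replicate block, a length offset and each library left out. A length side covariate and summed enolase counts were added after seeing the data. Some genes of the pathway and marker lists are not reported here.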

Additional observations from a re-analysis of the deposited data

Results flagged for a closer look

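In 114 groups of 4 libraries (57 genes, 2 groups each), the distance of the highest or lowest library from its nearest neighbour was taken as a part of the whole spread. It was above Dixon's 95% critical value for 4 values in 6 of them, where chance alone would give about 5.7. Pfkp, barely above that value, was highest in control 4 (gap 0.8292, 48.0 CPM against 36.8 to 38.7 CPM in the other controls). Pfkfb3 was highest in β-tetO-NICD library 1 (gap 0.905, 14.7 CPM against 7.41 to 8.10 CPM). Pgam1 was lowest in β-tetO-NICD library 1 (gap 0.918, 111 CPM against 155 to 159 CPM). Fbp1 was highest in control 3 (gap 0.902, 86.9 CPM against 47.8 to 51.7 CPM), as was Fh1 (gap 0.922, 74.5 CPM against 61.2 to 62.2 CPM). Me3 was highest in β-tetO-NICD library 5 (gap 0.889, 90.3 CPM against 33.8 to 40.0 CPM).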

How the results depend on the processing

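The 5 called members passed with median-ratio or upper-quartile normalization, either other count minimum, without the 10 genes with the most counts and with the acinar covariate. The count of members passing was 3 with the Eif2s3y covariate (1 lower), 0 in libraries without Eif2s3y counts (0 higher, 0 lower), 12 with the length offset (9 lower), 2 with the length side covariate (1 higher, 1 lower) and 10 by DESeq2 (6 lower). With 1 library left out it was 1 to 15 (higher 1 to 9, lower 0 to 6), the most without β-tetO-NICD library 1. Over all genes 33.2% were called in that fit and 2.14% to 5.78% with another library left out. The companion lists had 2, 1, 2 and 8 genes passing with the Eif2s3y covariate, without Eif2s3y libraries, with the length side covariate and by DESeq2, and 1 to 17 with 1 library left out, the 17 (36.2% of those tested) without β-tetO-NICD library 1, where 33.2% of all genes were called. The cause of these shifts was not tested.

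Of 440 values (the 20 members named by the rule, without Gapdh, Suclg1 and Gpd2, and 22 alternatives), 428 kept their direction. Those that turned were small estimates: Pfkm, 0.0059 with upper-quartile normalization and −0.117 to 0.033 with 1 library left out; Pfkp, 0.28 with the length offset; Aldoa, −0.147 to 0.011 with 1 library left out; Eno1, −0.15 with the length offset, −0.12 with the length side covariate and −0.0038 with Eno1b summed; Fbp1, −0.13 in libraries without Eif2s3y counts, −0.21 with the length offset, −0.24 with the length side covariate and −0.016 to 0.393 with 1 library left out; and Pck2, −0.087 in libraries without Eif2s3y counts. Divided by length, the difference in share between the groups was 2.23 percentage points for Aldoc (3.801 in counts), 0.107 for Pck1 (0.063) and −1.10 for Pfkp (−2.18). Upper-quartile normalization moved the median of all genes to 0.08.

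The labels number both groups 1 to 4, but β-tetO-NICD columns 4 and 5 could not be tied to single labelled samples, so only numbers 1 and 2 were blocked and the other libraries formed 1 block. Deviations of libraries with the same number had correlations of 0.28 and −0.09 (0.06 for the columns numbered 4). Whether such libraries share more than a number cannot be told from these few values. With the replicate block 4 members passed (7.02% where 6.43% of all genes were called), 1 of them lower, since Pcx did not (adjusted p = 0.0546).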
